A study of Ovis aries with 14 samples.

Results

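Genes whose RNA was lowest in the lungs of preterm lambs after 3 days of invasive mechanical ventilation were examined, and 64 such genes were found among 27054 in the table. Levels are given in CPM, a gene's count scaled to a common library total (count over column total, times 1000000). Members had a mean of 2 to under 1000 CPM over the 14 libraries. All 3 invasive ventilation libraries lay below all 11 others, and their mean was at most 0.75 times the mean of the 11. At least 1 library of the noninvasive group had to reach the lowest fetal library. The members were thus chosen by the measured values of all 14 libraries, and the low level after invasive ventilation is a description of that choice and was not tested.

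RNA came from the right lower lung lobe of sheep (Ovis aries), with 1 library per animal. Preterm lambs received invasive mechanical ventilation, in which the lamb is intubated (IMV, n = 3), or noninvasive respiratory support by mask (NRS, n = 3), for 3 days each, and both groups are labelled gd134. Untreated fetal lungs form the groups fetal start (n = 3, labelled gd127, gd128 and gd131) and fetal end (n = 3, with the labels gd135, gd134 and gd136). Untreated term lungs are labelled gd150 (n = 2), and the labels do not say whether these lambs had breathed. Animal identifiers end in 17 or 18 for IMV and fetal start, in 18 for NRS and term and in 19 for fetal end, and the labels do not say what these endings mean. Within ending 17 the median member stood at 0.691 times its level in fetal start replicate 1 in the mean of the 2 IMV libraries. Within ending 18 the median ratio of IMV replicate 3 to the mean of 7 other libraries was 0.681. Over all genes with a mean in the CPM range the same medians were 0.994 and 0.987. The direction of both ratios of the members is fixed by the rule.

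A lung born before term is still dividing its air spaces into alveoli and building the capillaries that surround them, and support of breathing then takes place in an organ that is still growing. Ventilation through a tube delivers gas under positive pressure directly into the airways, and prolonged use in preterm infants is associated with the lung disease bronchopulmonary dysplasia. Support through a mask leaves the airway without a tube. The table lists genes by Ensembl identifier and does not pair the identifiers with names, and the reference table used here matched 0 of them. The members are therefore described by level and pattern, without roles or cell types, and the lung tissue could not be checked against its marker genes. In whole tissue, fewer cells of one type and less RNA per cell cannot be told apart.

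Library totals ran from 23267448 to 31586235 counts, between 19062 and 19836 genes had at least 1 count, and the 100 most abundant genes of each library held 22.1% to 25.6% of its counts. The IMV libraries lay inside the range of the others in the share of the 100 most abundant genes, at 24.2% to 25.1%. Their totals, 27874232 to 31586235 counts, included the highest of the series. IMV replicate 1 had the fewest genes with at least 1 count, 19062, and IMV replicate 2 the most, 19836. Of the 13364 genes with a mean in the CPM range, 299 had all 3 IMV libraries below all 11 others, or 2.24%. The limit on the ratio removed 222 of these genes and the condition on NRS removed 13.

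Together the 64 members took 0.302%, 0.320% and 0.333% of the counts in the IMV libraries. In the other libraries they took 0.433% to 0.497% with NRS, 0.441% to 0.530% at fetal start, 0.459% to 0.540% at fetal end and 0.451% and 0.501% at term. The median member was 32.6% lower after IMV than the mean of the other libraries, with quartiles of 28.1% and 45.9% and a range of 25% to 71.1%. The depth of the difference was uneven: 13 members had at most 0.5 times the level of the 11 others, 14 had more than 0.5 and up to 0.65 times, and 37 had more than 0.65 times. A mean of 10 to under 100 CPM was found for 33 members (51.6%), against 60.9% of all genes in the range. Below 10 CPM lay 20 members (31.25%, and 23.9% of all genes), and 11 (17.2%, and 15.2%) lay at 100 CPM or more.

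**Figure D1:**
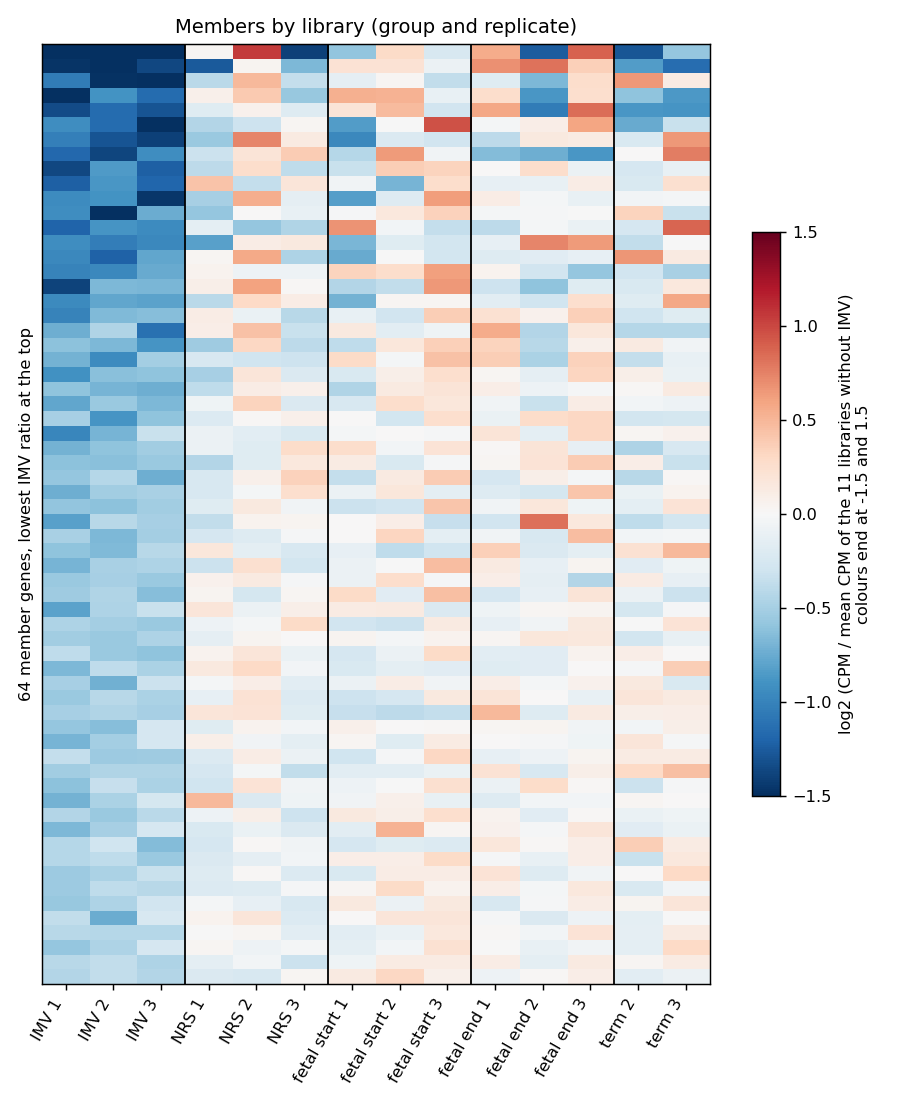
Level of the 64 members (rows, sorted by the ratio of the IMV mean to the mean of the 11 other libraries) in each of the 14 libraries (columns), as log2 of CPM over the mean CPM of the 11 libraries without IMV. The 3 IMV columns are below 0 in every row, as the rule requires, and the ratio of the means runs from 0.289 at the top to 0.75 at the bottom.

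The low level was shared by the 3 IMV animals but was not equal in them. Relative to the mean of the 11 other libraries the median member stood at 0.627 in IMV replicate 1, 0.657 in IMV replicate 2 and 0.682 in IMV replicate 3. IMV replicate 1 was the lowest of the IMV libraries for 32 of the 64 members, where it was the lowest for 40.5% of all genes in the CPM range. The median coefficient of variation of a member was 9.76% within IMV, 15% within NRS, 14.7% at fetal start, 11.9% at fetal end and 10.1% at term. Among all genes in the range the same medians were 11.3% within IMV, 11.6% within NRS, 13.9% at fetal start, 11.9% at fetal end and 11.1% at term. The rule favours members whose IMV libraries are all low, so a small spread within IMV is partly set by the choice.

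The distance between the IMV libraries and the nearest other library was small for most members. The lowest of the 11 other libraries exceeded the highest IMV library by a median factor of 1.07, with a range of 1.01 to 1.37, and 3 members reached a factor of 1.2. For 54 of the 64 members the exact 95% Poisson interval of the highest IMV library overlapped that of the lowest other library. Overlap of 2 such intervals does not by itself show that the counts do not differ. For the other 10 members the intervals did not overlap. The rule fixed which of the 2 libraries was lower, and the same share was not computed over all genes. Overlap also depends on the number of counts. The intervals of ENSOARG00000004103 did not overlap at a factor of 1.04, with 16475 counts in its highest IMV library. Those of ENSOARG00000012738 overlapped at a factor of 1.30, with 103 counts in its highest IMV library. The 10 are therefore a description and were not tested. Counts of the members in IMV libraries ran from 20 to 16475, and these intervals cover counting error only.

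The members with the lowest IMV ratio are described first. ENSOARG00000017065 had 0.821, 1.17 and 1.36 CPM in the IMV libraries, against 3.95, 7.99 and 1.47 CPM with NRS, 2.57, 4.72 and 3.27 CPM at fetal start, 5.72, 1.64 and 7.13 CPM at fetal end and 1.6 and 2.59 CPM at term. Its IMV mean was 0.289 times that of the 11 others, the lowest ratio of all members, but NRS replicate 3, fetal end replicate 2 and term replicate 2 came close to the IMV libraries. NRS replicate 3 and IMV replicate 3 both had 38 counts, so the gap between them rests on the library totals alone. Within NRS and within fetal end the gene varied more than 4-fold between animals.

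ENSOARG00000010465 had 6.50, 6.21 and 7.0 CPM in the IMV libraries, against 7.50, 18.4 and 11.2 CPM with NRS, 20.9, 20.9 and 16.9 CPM at fetal start, 28.9, 31.7 and 22.9 CPM at fetal end and 10.1 and 8.10 CPM at term. The IMV mean was 0.366 times that of the 11 others and 0.236 times that of fetal end. NRS replicate 1 and both term libraries lay closer to the IMV libraries than to any fetal library. The lowest NRS library had 209 counts, against 195 counts in the highest IMV library.

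The widest gaps belonged to members other than those with the lowest ratios described above. ENSOARG00000010042 had 10.7, 15.4 and 11.9 CPM in the IMV libraries, against 21.1, 33.2 and 21.4 CPM with NRS, 22.1, 36.0 and 35.1 CPM at fetal start, 27.8, 33.4 and 26.2 CPM at fetal end and 23.3 and 25.8 CPM at term. Its lowest other library, NRS replicate 1, was 1.37 times the highest IMV library, the widest gap of the 64, and every group without IMV averaged 24.6 CPM or more. ENSOARG00000012738 had 3.68, 2.72 and 2.26 CPM in the IMV libraries, against 5.74, 10.7 and 5.94 CPM with NRS, 6.91, 7.73 and 5.87 CPM at fetal start, 6.68, 4.77 and 9.11 CPM at fetal end and 11.9 and 8.31 CPM at term. Its gap was a factor of 1.30 and its IMV mean was 0.380 times that of the others, yet the counting intervals of the nearest libraries, IMV replicate 1 and fetal end replicate 2, overlapped, and IMV replicate 1 held 103 counts.

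The 2 most abundant members differed in the depth of their low level. ENSOARG00000004103 had 504, 522 and 506 CPM in the IMV libraries, against 810, 825 and 627 CPM with NRS, 561, 544 and 556 CPM at fetal start, 1000, 622 and 781 CPM at fetal end and 756 and 767 CPM at term. The IMV mean was 0.716 times that of the 11 others but 0.923 times that of fetal start, the highest ratio to fetal start among the members. Its level after IMV was therefore near that of the younger fetal lungs. ENSOARG00000018737 had 236, 287 and 368 CPM in the IMV libraries, against 435, 415 and 395 CPM with NRS, 455, 467 and 459 CPM at fetal start, 529, 421 and 574 CPM at fetal end and 472 and 486 CPM at term. The groups without IMV averaged 415 to 508 CPM, and IMV averaged 297 ± 66.4 CPM (SD, n = 3), or 0.640 times the mean of the 11 others.

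**Figure D2:**
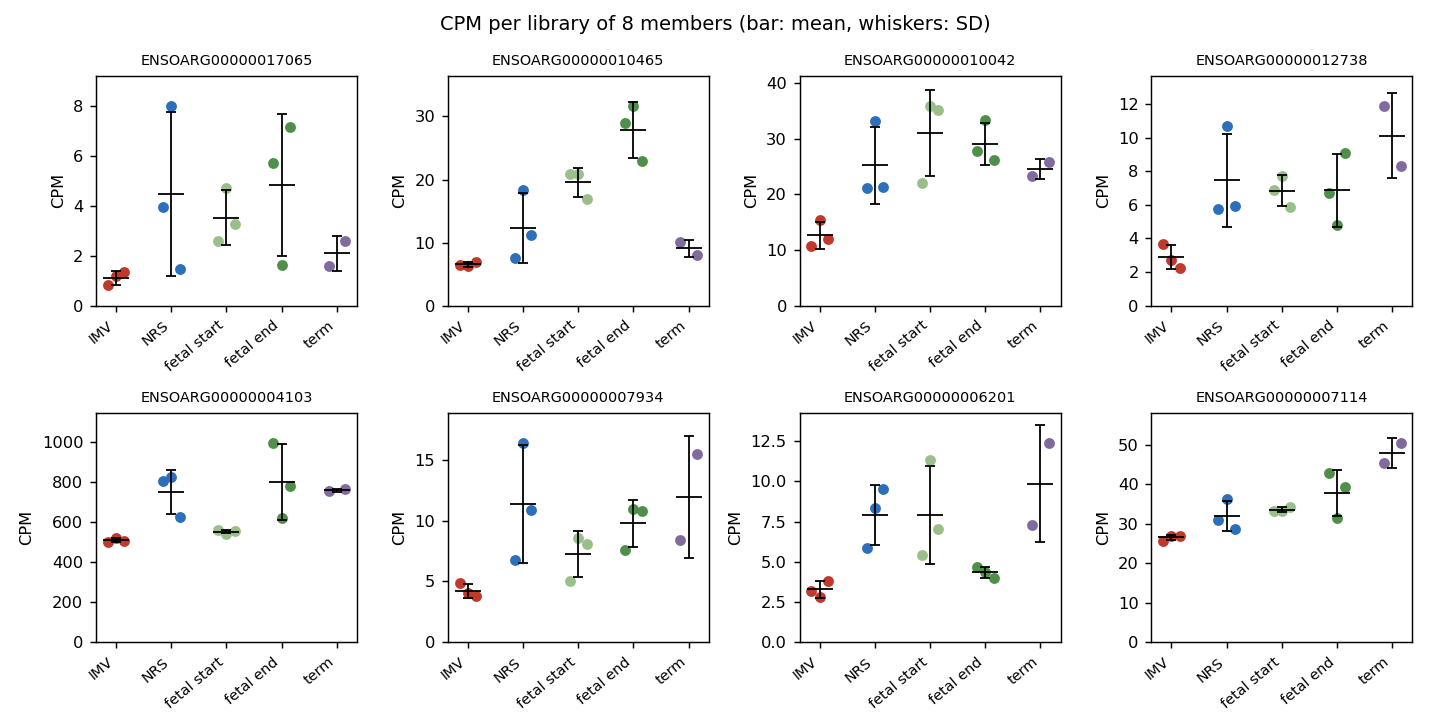
CPM (linear axis from 0) of 8 members in each library, by group, with 1 point per animal, the group mean as a bar and the SD as whiskers. ENSOARG00000010042 shows the widest gap between IMV and the rest, and ENSOARG00000017065 and ENSOARG00000010465 have NRS, fetal or term libraries close to the IMV points.

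Near the limit of 0.75, the last 2 members inside were ENSOARG00000016028, with a mean of 130.9 CPM after IMV against 174.6 CPM in the 11 others, and ENSOARG00000020627, with 69.4 against 92.5 CPM. The first 2 genes outside that met every other condition were ENSOARG00000017605, with 77.5 against 103 CPM, and ENSOARG00000012433, with 97.4 against 130 CPM. Their ratios were 0.7495 and 0.7499 inside and 0.7506 and 0.7508 outside, so the limit divides genes that are alike in this measure.

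Against each other group taken alone the median member had a similar ratio. IMV stood at 0.676 times NRS, 0.649 times fetal start, 0.664 times fetal end and 0.679 times term in the median, where the medians over all genes in the range were 0.972, 1.00, 0.992 and 0.984 in the same order. The highest ratio of any member was 0.841 against NRS, 0.923 against fetal start, 0.796 against fetal end and 0.849 against term. These ratios describe the contrast that chose the members.

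NRS lungs were set against the fetal lungs, with the reservation that 1 condition of the rule compared these groups, so the counts are descriptions. The NRS mean of the median member was near its fetal mean, which the rule in part set. The median ratio of the NRS mean to the mean of the 6 fetal libraries was 0.948, with quartiles of 0.862 and 1.04 and a range of 0.522 to 1.34, and 41 of the 64 members (64.1%) had a lower mean with NRS. Of all genes in the range 45.9% had a lower mean with NRS, with a median ratio of 1.02. All 3 NRS libraries lay at or above the lowest fetal library for 35 members (54.7%, and 69.1% of all genes), and all 3 lay above every fetal library for 0 members (7.68% of all genes).

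Members with a high and with a low NRS level were both found. ENSOARG00000007934 had the highest ratio of NRS to fetal, 1.34, with 11.3 ± 4.85 CPM with NRS (SD, n = 3) and 8.5 ± 2.2 CPM in fetal lungs (SD, n = 6). It had 4.86, 4.02 and 3.77 CPM in the IMV libraries, against 6.75, 16.4 and 10.9 CPM with NRS, and the fetal libraries ran from 5.06 to 10.9 CPM, so NRS and fetal values overlapped. ENSOARG00000015706 followed with a ratio of 1.33 and 6.89, 9.80 and 6.56 CPM with NRS, against 4.24 to 10.2 CPM in the 6 fetal libraries. Its IMV libraries had 2.46, 4.05 and 4.02 CPM.

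At the other end, ENSOARG00000010465, described above, had 0.522 times the fetal mean with NRS. ENSOARG00000019042 had 0.720 times the fetal mean, with 375, 361 and 359 CPM with NRS, against 541, 436 and 605 CPM at fetal start and 575, 321 and 564 CPM at fetal end. Its IMV libraries had 272, 232 and 312 CPM and its term libraries 347 and 411 CPM. Fetal end replicate 2 was the fetal library that lay below the NRS libraries and kept this gene among the members.

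**Figure D3:**
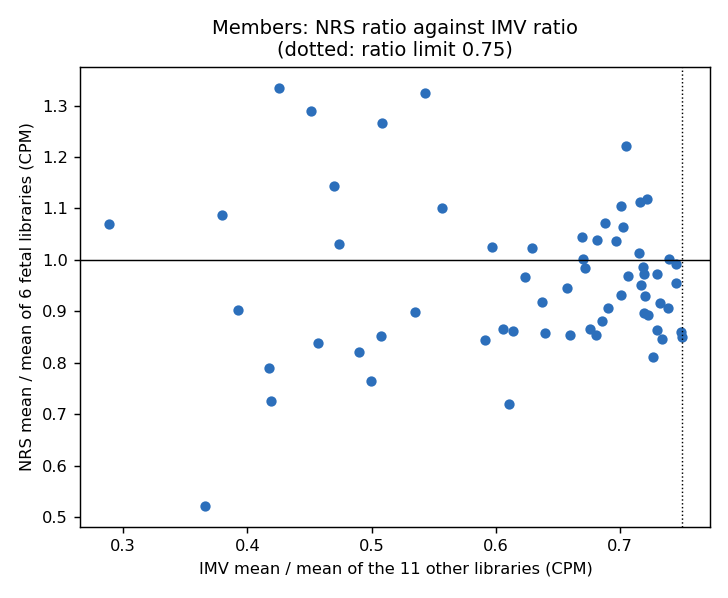
Each point is 1 of the 64 members: the ratio of the IMV mean to the mean of the 11 other libraries (horizontal axis) and the ratio of the NRS mean to the mean of the 6 fetal libraries (vertical axis), both from CPM. NRS ratios lie on both sides of 1, from 0.522 to 1.34, while IMV ratios end at the limit of 0.75.

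The group nearest to IMV differed from member to member. NRS had the lowest of the 4 group means for 22 members (34.4%), against 13.1% of all genes in the range, and the highest for 6 (9.38%), against 20.2%. Term had the lowest mean for 21 members (32.8%, and 35.9% of all genes), fetal start for 13 (20.3%, and 31.8%) and fetal end for 8 (12.5%, and 19.1%). By single libraries, the lowest of the 11 was an NRS library for 21 members (32.8%, and 16.4% of all genes). It was a fetal start library for 20 (31.25%, and 35.8%), a fetal end library for 12 (18.75%, and 20.0%) and a term library for 11 (17.2%, and 27.7%). Fetal start replicate 1 was the lowest for 15 members (23.4%, and 8.90% of all genes) and NRS replicate 1 for 11 (17.2%, and 3.26%). Fetal start replicate 3, labelled gd131, was the lowest for 0 members and the highest for 18 (28.1%, and 7.18%). The condition on NRS only removes genes whose NRS libraries all lie below every fetal library. It therefore cannot raise the number of members for which NRS was lowest. How far the rest of the rule sets these differences was not tested.

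Against the fetal mean, NRS and term were both lower for 29 members (45.3%, and 36.9% of all genes) and both higher for 15 (23.4%, and 41.3%). NRS was lower and term higher for 12 members (18.8%, and 8.98%), and NRS was higher and term lower for 8 (12.5%, and 12.8%). Members were found in each of these classes, in shares that mostly differed from those of all genes in the range. The classes rest on the sign of differences between group means. Across the 11 libraries without IMV the median Spearman correlation between 2 members was 0.109 over 2016 pairs, with quartiles of -0.130 and 0.345, and 6.35% of the pairs exceeded 0.6. Over all pairs of genes in the range the median was 0.018, with quartiles of -0.273 and 0.30, and 6.84% exceeded 0.6. All pairs share the same libraries and their depth, so these correlations are descriptions.

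Each IMV library was also left out in turn, the rule was applied with the other 2 IMV libraries, and the third was then read. With IMV replicate 1 left out of the choice, that library was below all 11 others for 60 of the genes chosen, or 45.8%, and for 13.6% of all genes in the range. Without IMV replicate 2 the rule chose 130 genes, and that library was the lowest for 67 of them, or 51.5%, and for 9.92% of all genes. Without IMV replicate 3 it chose 189 genes, and that library was the lowest for 70 of them, or 37.0%, and for 8.91% of all genes. The median level of the library left out was 0.75, 0.746 and 0.819 times the mean of the 11 others for IMV replicates 1, 2 and 3. The same 11 libraries took part in the choice and in the reading, which by itself raises the share among chosen genes above that among all genes. These shares are therefore descriptions and were not tested.

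The same reading was made in each group of 3, without the condition on NRS. Shares are given in the order of replicates 1, 2 and 3. The library left out was below all 11 libraries of the other groups for 48.3%, 53.0% and 38.8% of the genes chosen in IMV and for 13.6%, 22.2% and 31.8% in NRS. At fetal start the shares were 39.9%, 71.0% and 19.4%, and at fetal end 43.1%, 16.4% and 50%. The IMV shares lay above all 3 NRS shares and within the range of those at fetal start. At fetal end 1 of the 3 shares, that of fetal end replicate 2, lay below all IMV shares, and the other 2 lay among them. The NRS shares rest on 22 to 44 chosen genes, and the IMV shares on 149 to 224. How often a library is lowest for any gene also differs. Among the 11 libraries without IMV, NRS replicate 1 was lowest for 3.26% of all genes in the range. Fetal start replicate 2 was lowest for 20.7% of them. Shares over all genes were not computed for the left-out libraries of NRS and the fetal groups, so the order of groups lacks that background.

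**Figure D4:**
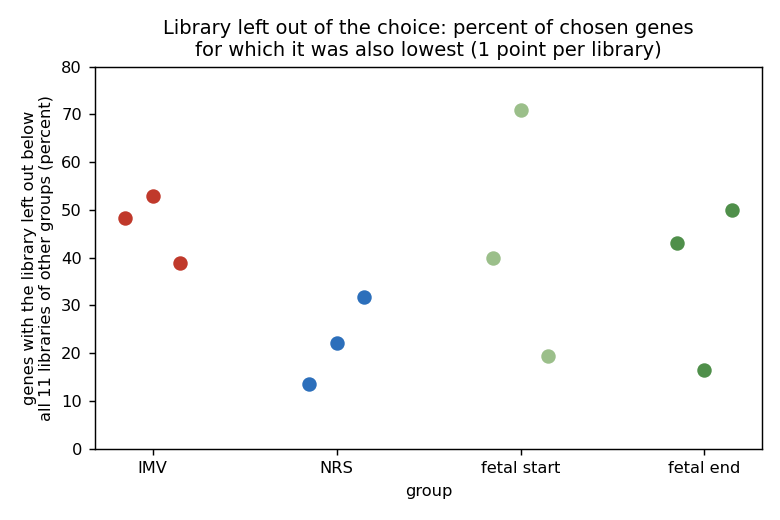
Percent of chosen genes for which the library left out of the choice lay below all 11 libraries of the other groups, with 1 point per library left out, by group, without the condition on NRS. The IMV points stand at 48.3%, 53.0% and 38.8%, above the NRS points and within the range of the fetal start points. Shares over all genes, which differ between libraries, are not shown.

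The same conditions on order, ratio and CPM, without the one on NRS, were applied to each group of 3. All 3 libraries were lowest for 77 genes with IMV, 6 with NRS, 118 at fetal start and 23 at fetal end. In the opposite direction, with the ratio inverted, all 3 libraries were highest for 103 genes with IMV, 38 with NRS, 82 at fetal start and 53 at fetal end. With TMM scaling, which corrects library totals for differences in composition, the lowest genes numbered 66 with IMV, 13 with NRS, 107 at fetal start and 34 at fetal end. The highest genes then numbered 129 with IMV, 24 with NRS, 97 at fetal start and 46 at fetal end. Genes lowest in 1 group were thus also found at fetal start, in larger number, and were fewest with NRS, under both scalings.

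The members were then tested in 3 contrasts between the groups without IMV that are not conditions of the rule. The values are not independent of the choice, since the rule used the levels of all 11 of these libraries, and the IMV libraries enter the estimate of the spread in the common fit. A gene with any of the 11 at or below the highest IMV library could not be chosen, which may limit the fold changes between these groups. The size of that effect was not tested. All 64 passed the filter on low counts. Term against fetal end compares untreated lungs labelled gd150 with the older fetal lungs. All term identifiers end in 18 and all fetal end identifiers in 19, so ending and group cannot be told apart. In term lungs 0 members were higher and 1 was lower (quasi-likelihood test in edgeR, p adjusted by Benjamini-Hochberg over 17069 genes, threshold 0.05), where 3.8% and 2.09% of all tested genes were called in these directions and 5.88% in both. At an unadjusted p under 0.05 there were 9 members (3 higher, 6 lower), or 14.1%, against 26.0% of all genes. The direction of all genes at this unadjusted threshold was not counted in any of the 3 contrasts. DESeq2 called 2 members (3.13%), against 14% of the 17104 genes to which it gave an adjusted p. The median log2 fold change of the members was -0.03, with quartiles of -0.20 and 0.16, and that of all genes was -0.01, with quartiles of -0.37 and 0.27.

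The member called was ENSOARG00000010465, at 10.1 and 8.10 CPM at term, against 28.9, 31.7 and 22.9 CPM at fetal end. The groups did not overlap, with a log2 fold change of -1.59 ± 0.30 SE (adjusted p = 0.0184 in edgeR). The call was lost without term replicate 2 (log2 fold change -1.77, edgeR adjusted p = 0.101) and without term replicate 3 (-1.43, edgeR adjusted p = 0.085). The higher member with the smallest p was ENSOARG00000006201, at 7.30 and 12.4 CPM at term, against 4.65, 4.39 and 3.99 CPM at fetal end. It did not pass (log2 fold change 1.2 ± 0.33 SE, edgeR adjusted p = 0.0525), and DESeq2 called it (DESeq2 adjusted p = 0.011). Its IMV libraries, with 3.21, 2.82 and 3.84 CPM, lay close to fetal end, and NRS libraries, with 5.85, 8.34 and 9.53 CPM, lay between fetal end and the higher term library.

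Term against NRS sets untreated lungs labelled gd150 beside preterm lungs after mask support, and all 5 animals have identifiers with the same ending. With edgeR 0 members and 0% of all genes were called, and DESeq2 called 1 member (1.56%), against 0.69% of all genes with an adjusted p. At an unadjusted p under 0.05 there were 7 members, all 7 higher at term, or 10.9%, against 10.4% of all genes in both directions. Shares of all genes by direction were not counted at this threshold, so the direction of the 7 lacks that background. On the log2 scale the median fold change was 0.06 for the members and 0.01 for all genes, and 40 members (62.5%) had a positive one, against 50.8% of all genes. ENSOARG00000007114 had the smallest p of the members, with 45.3 and 50.6 CPM at term, against 31.0, 36.3 and 28.7 CPM with NRS. Its log2 fold change of 0.63 ± 0.13 (SE) did not pass in edgeR (adjusted p = 0.388), and DESeq2 called it (DESeq2 adjusted p = 0.0171). Its IMV libraries had 25.7, 27.0 and 26.9 CPM, fetal start libraries 33.2, 33.1 and 34.3 CPM and fetal end libraries 42.8, 31.4 and 39.3 CPM. The lower member with the smallest p, ENSOARG00000023201, had 8.83 and 10.3 CPM at term, against 11.4, 10.8 and 14.7 CPM with NRS (log2 fold change -0.32 ± 0.17 SE, edgeR adjusted p = 0.534).

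Fetal end against fetal start compares untreated fetal lungs labelled gd134 to gd136 with those labelled gd127 to gd131. The identifiers end in 19 in all fetal end animals and in 17 or 18 at fetal start, so ending and group cannot be told apart. With edgeR 0 members were called, against 0.00586% of all genes, and DESeq2 called 0 members, against 0.696% of all genes with an adjusted p. At an unadjusted p under 0.05 there were 4 members (2 higher, 2 lower), or 6.25%, against 7.74% of all genes. On the log2 scale the median fold change was -0.02 for the members, with quartiles of -0.13 and 0.12, and 0.00 for all genes. ENSOARG00000004103, the most abundant member, had 1000, 622 and 781 CPM at fetal end, against 561, 544 and 556 CPM at fetal start. The groups did not overlap, but the log2 fold change of 0.51 ± 0.15 (SE) did not pass (edgeR adjusted p = 0.452). ENSOARG00000010307 had 2.44, 1.94 and 1.57 CPM at fetal end, against 2.96, 2.84 and 3.61 CPM at fetal start, or -0.69 ± 0.23 SE on the log2 scale (adjusted p = 0.497 in edgeR). Its IMV libraries had 1.18, 1.2 and 1.4 CPM, and the highest of them held 39 counts, as did fetal end replicate 3.

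**Figure D5:**
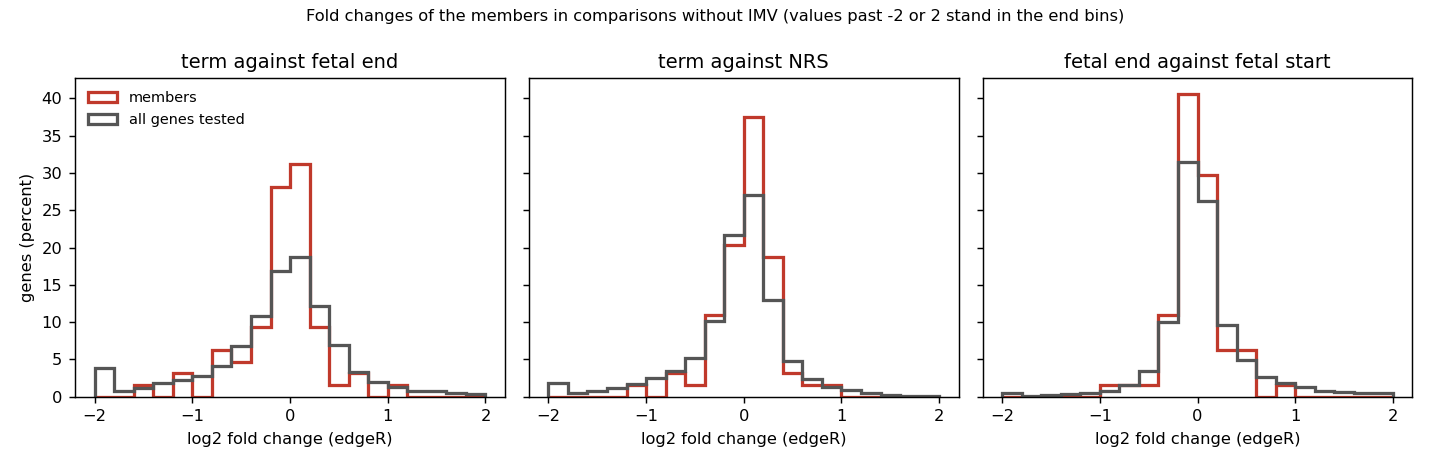
Log2 fold changes (edgeR) of the 64 members and of all 17069 genes tested, as percent of genes per bin of 0.2, in term against fetal end, term against NRS and fetal end against fetal start. The members centre near 0, with medians of -0.03, 0.06 and -0.02, and lie within the spread of all genes. The rule used the levels of the libraries compared, so these values are not independent of the choice.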

How the data were processed

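The members and gene lists were chosen with earlier results of these data known. The table the authors deposited holds unnormalized counts for each gene in 14 libraries. The 6 columns of the fetal groups hold whole-number counts like the other 8. The labels' protocols name a stranded total RNA kit. Software listed in the submitters' processing notes includes STAR 2.7.0f, cutadapt 1.16, featureCounts 1.6.3 and DESeq2 1.22.2, without their roles, and the build is Oar_v3.1. The sources used here do not give the strand setting or annotation release, so counts of overlapping or near-identical genes are uncertain.

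CPM was computed from column totals. Tests used edgeR 4.0.16 in R 4.3.3 (quasi-likelihood, TMM scaling, filterByExpr with a count minimum of 10) in 1 fit of 14 libraries and 5 group means, adjusted by Benjamini-Hochberg over 17069 genes, and were checked on simulated data. SE is the size of the log2 fold change over the square root of F. Correlations used log2(CPM + 0.5). Replicates are separate animals.

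Genes named are the 2 members with the lowest IMV ratio, the widest gap, the highest mean CPM, the highest and the lowest NRS ratio and the ratios nearest the limit. In each test they are the members called with the largest change in each direction or, where none was, the one with the smallest p. No gene list could be applied, since identifiers have no symbols here. The alternatives comprised RLE scaling, DESeq2 1.42.0, an unfiltered table, 2 groups alone, a replicate block, other scaling or limits in the rule, and each library left out. TMM scaling for the other groups of 3, the reading of a left-out library in those groups, the endings of identifiers and left-out libraries for the median ratio were added after seeing the data.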

Additional observations from a re-analysis of the deposited data

How the results depend on the processing

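With TMM scaling the rule found 55 genes, 50 of them among the 64 members. Of the 14 lost, 9 had an IMV library that reached another library, and 4 were lost by the ratio alone. All 64 kept an IMV mean below that of the 11 others, with a highest ratio of 0.758, and the 13 members given with values per library all remained members. DESeq2 size factors also gave 55 genes (51 shared). A ratio limit of 0.6 left 20 members, no ratio limit gave 270, and leaving out 1 library gave 62 to 189 genes, with 54 to 63 of the members among them. The count was 130 without IMV replicate 2, 189 without IMV replicate 3 and also over 1.5 times the main count without IMV replicate 1, since fewer libraries then had to be low. The median ratio of 0.674 ran from 0.657 to 0.684 with 1 library left out. With TMM scaling the genes lowest with NRS numbered 13 in place of 6 and those highest with NRS 24 in place of 38; the cause was not tested.

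In term against fetal end DESeq2 called 2 members and 2401 genes, a fit of the 2 groups alone 141 genes, and leaving out 1 library left 0 to 2 members and 44 to 844 genes, against 1004 with all. In term against NRS DESeq2 called 1 member and 115 genes, the 2 groups alone 1 gene, and leaving out 1 library 0 members and 0 to 2 genes. In fetal end against fetal start DESeq2 called 116 genes, the 2 groups alone 0, and leaving out 1 library 0 members and 0 to 5 genes. The replicate block called 450 genes at term against fetal end and 0 at fetal end against fetal start, and moved no count of members. Replicate numbers are shared by different animals. Deviations of same-numbered libraries from their group means correlated from -0.102 to 0.201 in these contrasts. With so few libraries per group, these values cannot decide whether the numbers mark pairs.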

Other observations

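The 13 genes removed by the condition on NRS had all 3 IMV libraries below all others, and all 3 NRS libraries below all 6 fetal ones. Their median ratio of the NRS mean to the fetal mean was 0.770, with a range of 0.633 to 0.860. Their median ratio of IMV to NRS was 0.817, with a range of 0.606 to 0.872, and that of term to fetal was 0.795, with a range of 0.604 to 0.962. In these 13 genes NRS was thus lower than fetal as well, with IMV lower again, and both contrasts were part of the choice.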
